A study of Homo sapiens with 6 samples.

Results

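The 46 lysosome and autophagy genes described here were chosen by symbol from the 23710 genes of the count table. They comprise 23 genes of lysosomal proteins, 20 genes of the autophagy machinery and the 3 genes of the MiT/TFE transcription factors TFEB, TFE3 and MITF. All 46 were in the table and all 46 passed the filter on low counts, through which 13591 genes were tested. The symbols were set by name and function and not by any measured value, although earlier results on some of these genes were known when the set was drawn up.

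The cells were THP-1, an established monocytic line that came from a human leukaemia, kept for 6 h either in 10 uM mebendazole or in DMSO, its solvent. Mebendazole is an anthelmintic whose known target is tubulin, the subunit of microtubules. Each group had 3 libraries, and a sample pair label joins them into 3 pairs of 1 mebendazole and 1 DMSO library. Nothing in the labels tells whether a pair was its own culture, so each p-value reflects only how far these libraries scatter, and that scatter may be technical.

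Lysosomes are acidic organelles that degrade material delivered by endocytosis, phagocytosis and autophagy, and in cells of the monocyte and macrophage lineage they also handle engulfed particles. In autophagy, an initiation complex and phosphoinositide-binding proteins start a membrane sheet, conjugation enzymes attach ATG8 proteins to its lipid, and receptors hold cargo to those ATG8 proteins until the closed vesicle fuses with a lysosome. TFEB, TFE3 and MITF are related transcription factors that bind E-box sequences in promoters of many genes of both groups.

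Library totals were 13420558 to 15727667 reads. Within groups the Spearman correlation of levels was at least 0.997, and no pair of replicates agreed within sampling noise. Of the 13 monocytic identity genes, all 13 averaged above 1 CPM, and 3 were called higher and 7 lower with mebendazole. Their summed level was 5607 to 5981 CPM with mebendazole and 5139 to 5480 CPM with DMSO. Summed macrophage maturation genes stood at 3545 to 3873 CPM with mebendazole and 3047 to 3128 CPM with DMSO, with MRC1 at 0 in every library. Of the 13 of these 18 genes that were tested, 7 were higher and 6 lower with mebendazole. Their part in the changes below was not tested, and in bulk RNA a change in the cells that carry a gene and a change of its RNA per cell cannot be told apart. Lymphocyte markers summed to 5.59 to 7.82 CPM with mebendazole and 1.35 to 1.64 CPM with DMSO. Of these, CD8A stood at 4.49 to 6.44 CPM with mebendazole and at 0.294 to 0.394 CPM with DMSO, while CD3D, CD3E and CD3G had 0 reads with mebendazole.

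With the main scaling of libraries (TMM), most of the 46 members were higher with mebendazole by modest amounts, and a few by a large amount. Other lysosomal genes, given below, did not lean to higher. Of the 46 genes, 32 were called higher, 8 were called lower and 6 were not called (edgeR quasi-likelihood test with the sample pair in the model, Benjamini-Hochberg adjusted p under 0.05 over all genes tested). Over all genes tested, 82.3% were called, 40.6% higher and 41.7% lower, so the number of calls among the members was near the background while their direction leaned to higher. Their median log2 fold change was 0.28, against -0.03 over all genes tested. At 2-fold or more, 10 members rose (15.5% of all genes tested did), namely WIPI1, GABARAPL1, NPC1, MAP1LC3B, MITF, GLA, TFE3, NEU1, OPTN and ULK1. No member fell 2-fold in edgeR or in DESeq2, whereas 14.8% of all genes tested did in edgeR, and the members lower at an unadjusted p under 0.05 were the same 8. The lowest member was LIPA, with a log2 fold change of -0.72 in edgeR and -0.70 in DESeq2. Every member had a mean of 10 CPM or more, the least being WIPI1 at 10.8 CPM. Of the 9502 tested genes at that level, 44.9% were called higher and 41.8% lower. The median log2 fold change of those genes was 0.02, and 1304 of them rose and 984 fell 2-fold or more. The mebendazole and DMSO libraries did not overlap for 32 members that stood higher and 9 that stood lower (82.4% of all genes tested did not overlap).

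**Figure D1:**
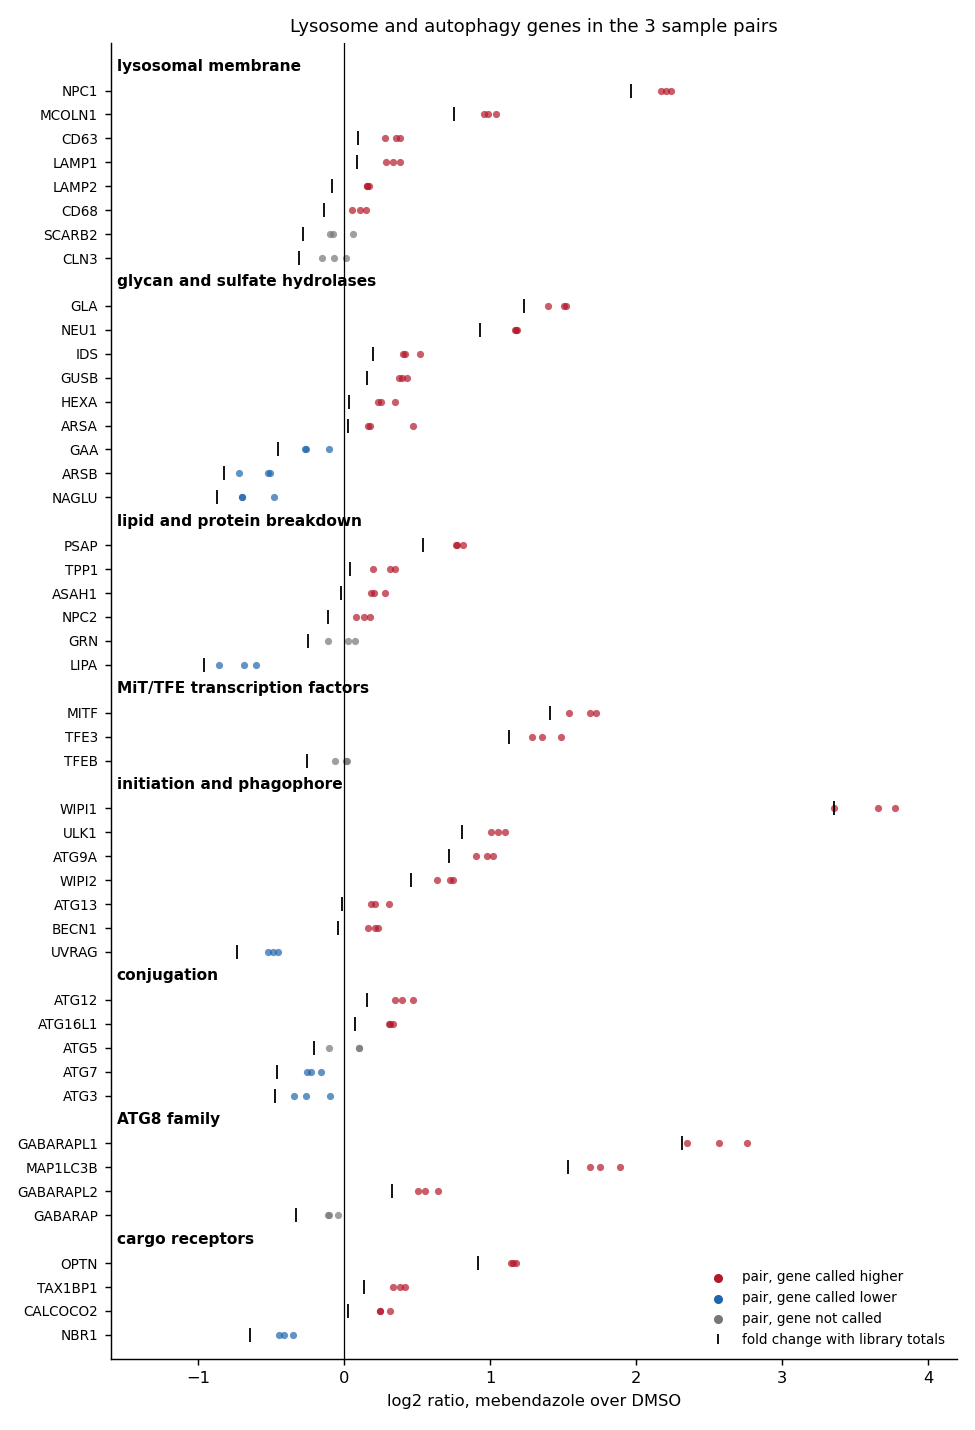
Log2 ratio of mebendazole over DMSO for each of the 46 genes, with 1 point per sample pair and the genes ordered by fold change within 8 roles; black ticks give the fold change when libraries are scaled by their totals. WIPI1, GABARAPL1 and NPC1 stand above 2 in every pair, while LIPA has the lowest fold change, -0.72.

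Lysosomal and autophagy genes had similar shares of calls in each direction. Of 23 lysosomal genes, 16 were higher and 4 lower (median log2 fold change 0.27). Of 20 autophagy genes, 14 were higher and 4 lower (median 0.35). The medians differed by -0.08, lysosomal minus autophagy, a difference that was not tested. At 2-fold or more, 3 of the 23 lysosomal and 5 of the 20 autophagy genes rose, against 15.5% of all genes tested. Summed over the class, the lysosomal genes held 7358 ± 86.0 CPM with mebendazole and 5752 ± 200 CPM with DMSO (SD, n = 3 each), a ratio of 1.28. The autophagy genes summed to 1605 ± 33.8 CPM with mebendazole and 1206 ± 13.2 CPM with DMSO, a ratio of 1.33. Both sums cover only the members and use TMM scaling, and the gaps were smaller as shares of all reads. The lysosomal members held 0.673% to 0.677% of reads with mebendazole and 0.610% to 0.644% with DMSO. The autophagy members held 0.1453% to 0.1486% with mebendazole and 0.1309% to 0.1315% with DMSO.

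Directions of small changes depended on how libraries were scaled. TMM, the main scaling, sets libraries level on the bulk of their genes. Scaling by library totals moved the median of all genes by -0.24 on the log2 scale, with 30.8% of all genes then called higher and 53.9% lower. With library totals, 21 members were called higher and 17 lower. The lysosomal split turned to 9 higher and 10 lower with a median of 0.02, and the autophagy split became 10 higher and 6 lower with a median of 0.10. Under both scalings 21 members were higher and 8 were lower, and LAMP2, CD68 and NPC2 were called in opposite directions. Ranks among all genes do not depend on a shift of this kind. By rank, 14 members lay in the top 25% of all genes tested, 2 in the bottom 25% and 35 above the median gene. The top 25% held 5 of 23 lysosomal genes (21.7%) and 7 of 20 autophagy genes (35%).

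The MiT/TFE factors themselves differed from each other. MITF, the factor first known from pigment cells, had 25.9, 25.9 and 23.5 CPM (counts per 1000000 reads, scaled by TMM) in the mebendazole libraries of pairs 1 to 3, against 8.87, 7.80 and 7.29 CPM in the DMSO libraries (log2 fold change 1.65, SE 0.06, adjusted p = 4.0e-26, edgeR). TFE3 had 144, 147 and 139.7 CPM with mebendazole, against 59.2, 52.7 and 54.5 CPM with DMSO (1.37, SE 0.06, adjusted p = 6.1e-38, edgeR). For both genes every mebendazole library lay above every DMSO library, with fitted folds of 3.14 for MITF and 2.59 for TFE3. TFEB had 52.2, 49.1 and 53.1 CPM with mebendazole, against 54.5, 48.7 and 52.4 CPM with DMSO (-0.01, SE 0.03, adjusted p = 0.84, edgeR). The TFEB groups overlapped, and with library totals it was called lower (-0.26). RNA levels do not measure where these proteins are in the cell. The SE given with each log2 fold change is the SD of the 3 pair ratios divided by the square root of 3, so it covers the spread between pairs only.

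Promoter windows were read from RefSeq (GRCh38.p14), from 250 bases before to 50 bases after each annotated start, because the MiT/TFE factors bind the E-box core CACGTG and its longer form TCACGTGA, and MITF is also known for the M-box TCATGTGA. A window was found for 39 members, of which 12 had more than 1 window, and a gene counts as holding a motif where any of its windows does. LAMP2, ARSA, ASAH1, HEXA, UVRAG, NAGLU and PSAP had no entry. The following stretches run 5′ to 3′ on the gene's own strand, with each motif that lies wholly inside the stretch in capitals. In LAMP1 a further TCACGTGA begins at base -2, so the end of the stretch cuts it and it is not marked. MCOLN1, LAMP1, GAA and NEU1 are shown because their windows hold the E-box, TPP1 because it holds the M-box on both strands, and WIPI1 and GABARAPL1 because they were the members with the highest fold changes.
MCOLN1: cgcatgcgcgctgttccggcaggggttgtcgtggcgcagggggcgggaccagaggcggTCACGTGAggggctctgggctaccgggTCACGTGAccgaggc
LAMP1: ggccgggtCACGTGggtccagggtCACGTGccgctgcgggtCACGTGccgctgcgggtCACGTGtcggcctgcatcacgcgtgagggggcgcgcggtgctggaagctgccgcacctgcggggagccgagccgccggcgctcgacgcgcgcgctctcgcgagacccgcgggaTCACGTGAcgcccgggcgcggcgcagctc
GAA: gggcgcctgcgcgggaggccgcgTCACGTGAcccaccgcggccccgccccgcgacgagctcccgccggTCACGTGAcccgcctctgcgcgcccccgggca
NEU1: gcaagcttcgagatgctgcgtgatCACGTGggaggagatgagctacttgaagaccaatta
TPP1: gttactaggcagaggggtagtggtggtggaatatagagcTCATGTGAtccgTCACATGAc
WIPI1: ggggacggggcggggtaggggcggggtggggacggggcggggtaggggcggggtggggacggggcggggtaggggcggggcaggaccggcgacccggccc
GABARAPL1: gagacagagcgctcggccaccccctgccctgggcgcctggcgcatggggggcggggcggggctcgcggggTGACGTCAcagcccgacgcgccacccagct

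On GRCh38.p14 these stretches lie at chr19:7522524-7522623 (plus strand) for MCOLN1, chr13:113297039-113297238 (plus) for LAMP1, chr17:80101481-80101580 (plus) for GAA and chr6:31862912-31862971 (minus) for NEU1. Those of TPP1, WIPI1 and GABARAPL1 lie at chr11:6619423-6619482 (minus), chr17:68457497-68457596 (minus) and chr12:10212777-10212876 (plus). All stretches end at the base before the annotated start except that of NEU1, which covers bases -150 to -91. The core CACGTG reads the same on both strands, and every TCACGTGA also holds it.

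The E-box core was found in windows of both classes, and the difference between their shares was not tested. The core CACGTG was in 8 of 39 members (20.5%), 7 of 17 lysosomal genes and 1 of 19 autophagy genes, against 7.26% of all 35116 windows of the table and 12.6% of the genes tested that had one. The longer TCACGTGA was in LAMP1, CLN3, GAA, MCOLN1 and ATG3, 5 of 39 members, against 0.980% of all windows and 2.21% of tested genes. The M-box, searched on both strands, was in TPP1, CD63 and GRN, 3 of 39 members, against 1.00% of all windows and 1.23% of tested genes. A match is only a run of letters in this window and says nothing of binding.

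Over the 39 members with a window, those with the E-box core CACGTG had the lower median change. They were 7 lysosomal genes and 1 autophagy gene, so this split also divides the classes, and it was not made within each class. The 8 members with CACGTG had a median log2 fold change of 0.13 (4 higher and 3 lower), against 0.38 for the 31 without it (23 higher and 3 lower). Over the 9902 genes tested that had a window, the medians were -0.10 for the 1243 with the core and -0.01 for the 8659 without it. For the longer form they were close, -0.01 for the 219 genes with it and -0.02 for the 9683 without it. The 5 members with the longer form ran from MCOLN1, at 1.00, to ATG3, at -0.23. WIPI1, GABARAPL1, NPC1 and MAP1LC3B, the members with the 4 highest fold changes, had no CACGTG in their windows, and other forms of the E-box were not searched. The capitals in GABARAPL1 mark TGACGTCA, the cAMP response element, which was searched only after that stretch had been read. Among members it was found in GABARAPL1 and in 1 of the 3 windows of MITF, against 1.85% of all windows and 3.73% of tested genes.

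**Figure D2:**
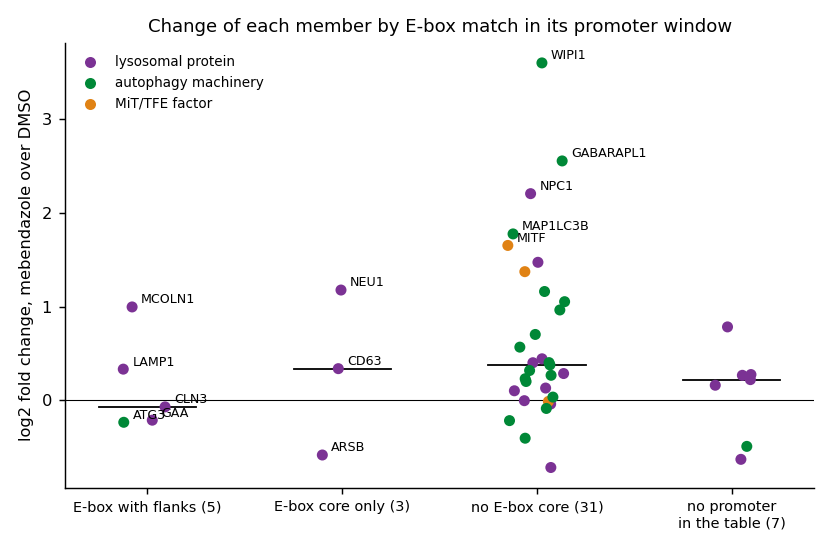
Log2 fold change of mebendazole over DMSO for each member (1 point per gene, coloured by class), grouped by E-box match in its promoter window, with the median of each group as a bar. Of the 5 genes with the longer E-box form, MCOLN1 stands highest at 1.00, while the members above 1.5 all lie in the group of 31 without a core.

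Genes of the lysosomal membrane were led by a cholesterol exporter and a calcium channel. NPC1, which moves cholesterol out of the lysosome, had 169, 169 and 166 CPM with mebendazole, against 36.7, 37.6 and 35.2 CPM with DMSO (log2 fold change 2.21, SE 0.02, adjusted p = 3.2e-49, edgeR). MCOLN1, the lysosomal calcium channel whose E-boxes are printed above, had 44.3, 40.2 and 42.0 CPM with mebendazole, against 21.5, 20.7 and 21.2 CPM with DMSO (1.00, SE 0.02, adjusted p = 2.6e-22, edgeR). Both were far outside the spread of the libraries. Exons of MCOLN1 overlap those of PNPLA6 on the same strand, and PNPLA6 stood at 125 to 144 CPM with mebendazole and 53.2 to 58.1 CPM with DMSO, so reads of these 2 genes may be shared.

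The abundant membrane glycoproteins rose by small amounts. LAMP1, a main coat protein of the lysosomal membrane, had 369, 341 and 357 CPM with mebendazole, against 284, 281 and 283 CPM with DMSO (log2 fold change 0.33, SE 0.03, adjusted p = 3.8e-14, edgeR). CD63, a tetraspanin of lysosomes and late endosomes, had 697, 675 and 684 CPM with mebendazole, against 546, 517 and 563 CPM with DMSO (0.34, SE 0.03, adjusted p = 1.3e-15, edgeR). The groups were apart for both, and both stayed higher with library totals. LAMP2, which also serves chaperone-mediated autophagy, had 495, 469 and 489 CPM with mebendazole, against 439, 421 and 439 CPM with DMSO (0.16, adjusted p = 5.2e-06, edgeR). CD68, a glycoprotein used as a macrophage marker, had 445, 439 and 445 CPM with mebendazole, against 429, 396 and 413 CPM with DMSO (0.10, adjusted p = 0.0031, edgeR). LAMP2 and CD68 stood higher in all 3 pairs with TMM, but with library totals they were called lower, at -0.08 and -0.14. CD68 also lost its call without pair 3.

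The remaining membrane genes were not called. SCARB2, the receptor that carries glucocerebrosidase to the lysosome, had 94.2, 90.4 and 96.4 CPM with mebendazole, against 101, 95.5 and 92.6 CPM with DMSO (log2 fold change -0.04, adjusted p = 0.41, edgeR). CLN3, the membrane protein lost in juvenile Batten disease, had 43.4, 40.9 and 42.8 CPM with mebendazole, against 45.6, 45.4 and 42.4 CPM with DMSO (-0.07, adjusted p = 0.25, edgeR). Groups overlapped for both, and both were called lower with library totals, at -0.28 and -0.31. CLN3 overlaps APOBR on the other strand, and the library kit does not mark strand.

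Hydrolases of glycans and sulfates went in both directions, 6 higher and 3 lower, with no member left uncalled. GLA, alpha-galactosidase A, had 211, 222 and 219 CPM with mebendazole, against 80.1, 78.4 and 76.5 CPM with DMSO (log2 fold change 1.47, SE 0.04, adjusted p = 1.3e-42, edgeR). NEU1, the lysosomal sialidase, had 341, 324 and 345 CPM with mebendazole, against 151, 144 and 152 CPM with DMSO (1.18, SE 0.0044, adjusted p = 1.3e-40, edgeR). The pair ratios of NEU1 were nearly equal, so its SE is small. IDS, which removes sulfate from heparan and dermatan sulfate, had 264, 263 and 279.9 CPM with mebendazole, against 200.4, 197 and 196 CPM with DMSO (0.44, SE 0.04, adjusted p = 3.0e-18, edgeR). GUSB, beta-glucuronidase, had 146 CPM in each mebendazole library, against 111, 108 and 112 CPM with DMSO (0.40, SE 0.02, adjusted p = 3.3e-14, edgeR). GUSB has pseudogenes that could take its reads, among them GUSBP11 with 621 to 768 reads with mebendazole and 488 to 542 reads with DMSO, so its value is uncertain.

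The other hydrolases that rose did so by less, and their calls rested on the scaling. HEXA, the alpha subunit of beta-hexosaminidase, had 159, 175 and 165 CPM with mebendazole, against 133, 137 and 141 CPM with DMSO (log2 fold change 0.28, SE 0.04, adjusted p = 2.8e-09, edgeR). ARSA, the arylsulfatase that acts on sulfatide, had 76.0, 82.6 and 80.5 CPM with mebendazole, against 67.8, 59.6 and 71.2 CPM with DMSO (0.27, SE 0.10, adjusted p = 2.6e-06, edgeR). With library totals neither was called, at 0.03 and 0.02.

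The hydrolases that fell were NAGLU, ARSB and GAA. NAGLU, which trims heparan sulfate, had 15.7, 16.6 and 15.0 CPM with mebendazole, against 25.4, 23.3 and 24.5 CPM with DMSO (log2 fold change -0.63, SE 0.07, adjusted p = 9.1e-11, edgeR). ARSB, the arylsulfatase that acts on dermatan sulfate, had 48.6, 41.0 and 46.9 CPM with mebendazole, against 69.3, 67.9 and 67.4 CPM with DMSO (-0.58, SE 0.07, adjusted p = 9.1e-16, edgeR). GAA, which breaks down glycogen and whose window holds the longer E-box form, had 139, 139 and 132 CPM with mebendazole, against 166, 149 and 158 CPM with DMSO (-0.21, SE 0.05, adjusted p = 2.4e-06, edgeR). Every mebendazole library lay below every DMSO library for these genes, under either scaling they were called lower, and ARSB and IDS, enzymes of the same glycan, moved in opposite directions.

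Of 6 genes of lipid and protein breakdown, 4 rose, 1 fell and 1 was not called. PSAP, the precursor of the saposins that help hydrolases reach lipids, had 1393, 1353 and 1380 CPM with mebendazole, against 818, 771 and 809 CPM with DMSO (log2 fold change 0.78, SE 0.01, adjusted p = 6.7e-35, edgeR). TPP1, the tripeptidyl peptidase whose M-boxes are printed above, had 711, 725 and 708 CPM with mebendazole, against 620.1, 569.6 and 569.7 CPM with DMSO (0.29, SE 0.05, adjusted p = 1.2e-12, edgeR). ASAH1, acid ceramidase, had 333, 326 and 358 CPM with mebendazole, against 294, 284 and 295 CPM with DMSO (0.22, SE 0.03, adjusted p = 1.8e-08, edgeR). PSAP stayed called higher with library totals, while TPP1 (0.04) and ASAH1 (-0.02) were not called there.

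NPC2 hands cholesterol to NPC1, and these partner genes differed in size of change. NPC2 had 132, 127 and 136 CPM with mebendazole, against 119.9, 119.9 and 120.2 CPM with DMSO (log2 fold change 0.13, SE 0.03, adjusted p = 0.0025, edgeR). It was called lower with library totals (-0.11) and lost its call without pair 3. LIPA, the acid lipase that frees cholesterol from its esters, had 38.8, 33.3 and 38.6 CPM with mebendazole, against 62.7, 60.5 and 58.7 CPM with DMSO (-0.72, SE 0.07, adjusted p = 1.8e-18, edgeR). Thus the exporter NPC1 rose while LIPA fell, in all 3 pairs. GRN, progranulin, had 1045, 1021 and 1031 CPM with mebendazole, against 1129, 969 and 1012 CPM with DMSO (log2 fold change -0.003, SE 0.06, adjusted p = 0.92, edgeR), and its groups overlapped. Its sign turned without pair 1, and with library totals GRN was called lower (-0.25).

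**Figure D3:**
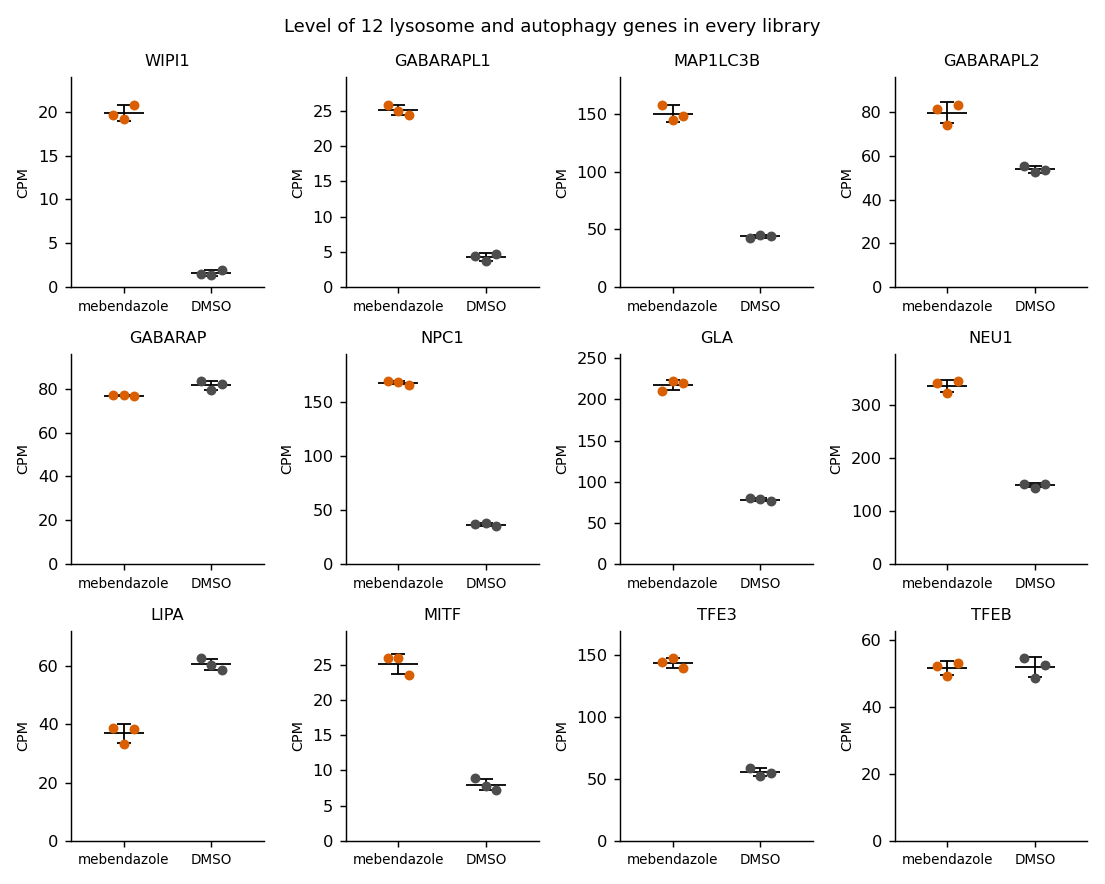
Level in CPM (TMM scaled) of 12 lysosome and autophagy genes in each of the 3 mebendazole and 3 DMSO libraries, with the group mean and SD as bars. With DMSO, WIPI1 reaches at most 2.00 CPM and GABARAPL1 at most 4.76 CPM; LIPA is lower with mebendazole, and the groups overlap for TFEB.

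Initiation and phagophore genes held the widest range of the autophagy classes, 6 higher and 1 lower with a median of 0.70. WIPI1, a phosphoinositide-binding protein of the growing phagophore, had 19.6, 19.2 and 20.9 CPM with mebendazole, against 1.51, 1.36 and 2.00 CPM with DMSO (log2 fold change 3.60, SE 0.13, adjusted p = 9.9e-35, edgeR). That is 12.1-fold, the largest change of the 46 genes, though the 3 DMSO libraries together held only 77 of its reads. WIPI1 overlaps ARSG on the other strand, and ARSG stood at 0.866 to 1.30 CPM with mebendazole and 1.69 to 2.59 CPM with DMSO; the part of shared reads was not tested. WIPI2, its relative that recruits the conjugation complex, had 139.7, 135 and 147 CPM with mebendazole, against 83.4, 86.7 and 88.9 CPM with DMSO (0.70, SE 0.03, adjusted p = 3.9e-24, edgeR).

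ULK1 and ATG9A rose by similar amounts. ULK1, the kinase that starts autophagy, had 62.1, 60.8 and 57.3 CPM with mebendazole, against 30.9, 28.3 and 27.6 CPM with DMSO (log2 fold change 1.05, SE 0.03, adjusted p = 3.4e-26, edgeR). ATG9A, the lipid scramblase of the vesicles that seed the phagophore, had 144, 138 and 142 CPM with mebendazole, against 77.0, 68.0 and 71.9 CPM with DMSO (0.96, SE 0.03, adjusted p = 1.0e-30, edgeR). Both stayed called higher with library totals. ATG13, a subunit of the ULK1 complex, had 109, 106 and 113 CPM with mebendazole, against 96.2, 91.5 and 91.3 CPM with DMSO (0.23, SE 0.04, adjusted p = 2.3e-06, edgeR). BECN1, a subunit of the lipid kinase complex of autophagy, had 79.8, 78.8 and 78.2 CPM with mebendazole, against 68.9, 67.2 and 69.8 CPM with DMSO (0.20, SE 0.02, adjusted p = 0.0001, edgeR). The groups were apart for ATG13 and BECN1, but with library totals neither was called, at -0.01 and -0.04. UVRAG, a partner of BECN1, had 35.0, 35.0 and 32.9 CPM with mebendazole, against 49.2, 48.0 and 47.3 CPM with DMSO (-0.49, SE 0.02, adjusted p = 1.3e-11, edgeR), so it fell where BECN1 rose.

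Of the 5 conjugation genes, 2 were higher, 2 lower and 1 not called, with a median of 0.03 with TMM. ATG12, a ubiquitin-like protein, had 53.7, 53.8 and 50.4 CPM with mebendazole, against 38.8, 42.3 and 38.4 CPM with DMSO (log2 fold change 0.40, SE 0.04, adjusted p = 1.5e-09, edgeR). ATG16L1, which places the conjugation complex on membrane, had 53.1, 54.7 and 56.2 CPM with mebendazole, against 42.1, 44.1 and 45.3 CPM with DMSO (0.32, SE 0.0081, adjusted p = 2.6e-07, edgeR). ATG16L1 was not called with library totals (0.07). ATG5, to which ATG12 is joined, had 95.3, 85.3 and 96.6 CPM with mebendazole, against 89.1, 91.6 and 90.0 CPM with DMSO (0.03, SE 0.07, adjusted p = 0.48, edgeR). The ATG5 groups overlapped and pair 2 went against the other pairs. Without pair 2 it was called higher (0.12), and with library totals lower (-0.21).

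The E1-like and E2-like enzymes of the same system fell slightly. ATG7, the E1-like enzyme, had 52.9, 57.1 and 53.9 CPM with mebendazole, against 63.2, 63.8 and 63.3 CPM with DMSO (log2 fold change -0.22, SE 0.03, adjusted p = 0.00011, edgeR). ATG3, the E2-like enzyme and the only autophagy member found with the core CACGTG in its window, had 49.8, 49.4 and 57.0 CPM with mebendazole, against 63.2, 59.4 and 61.0 CPM with DMSO (-0.23, SE 0.07, adjusted p = 6.1e-05, edgeR). The groups were apart for both. ATG7 overlaps VGLL4, and ATG12 overlaps AP3S1, each on the other strand.

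ATG8 proteins coat the autophagosome membrane and bind cargo receptors. Of the 4 members, 3 rose and GABARAP was not called. GABARAPL1 had 25.9, 25.0 and 24.5 CPM with mebendazole, against 4.34, 3.66 and 4.76 CPM with DMSO (log2 fold change 2.55, SE 0.12, adjusted p = 8.7e-33, edgeR). MAP1LC3B, whose lipid-bound protein is the usual marker of autophagosomes, had 158, 145 and 148 CPM with mebendazole, against 42.8, 45.0 and 43.9 CPM with DMSO (1.78, SE 0.06, adjusted p = 1.4e-43, edgeR). GABARAPL2 had 81.4, 74.3 and 83.5 CPM with mebendazole, against 55.4, 52.4 and 53.6 CPM with DMSO (0.57, SE 0.04, adjusted p = 1.2e-16, edgeR). All 3 were apart between groups and stayed called higher with library totals. GABARAP had 77.2, 77.1 and 76.6 CPM with mebendazole, against 83.4, 79.3 and 82.4 CPM with DMSO (-0.09, SE 0.02, adjusted p = 0.078, edgeR). Its groups did not overlap, and it was called lower with library totals (-0.33) and when genes under a mean of 10 CPM were left out (-0.12). Reads of the near-identical copy MAP1LC3B2 numbered 20 to 30 per mebendazole library and 6 to 16 per DMSO library, and GABARAPL3 had 0 or 1 per library.

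Cargo receptors split 3 higher and 1 lower. OPTN, optineurin, a receptor for damaged mitochondria and bacteria, had 36.3, 41.8 and 39.3 CPM with mebendazole, against 16.4, 18.4 and 17.6 CPM with DMSO (log2 fold change 1.16, SE 0.010, adjusted p = 1.7e-24, edgeR). TAX1BP1, a receptor for ubiquitinated cargo, had 192, 178 and 183 CPM with mebendazole, against 144, 137 and 145 CPM with DMSO (0.38, SE 0.02, adjusted p = 3.5e-14, edgeR). CALCOCO2, the receptor NDP52 for bacteria and mitochondria, had 93.5, 88.5 and 89.2 CPM with mebendazole, against 75.1, 74.8 and 75.4 CPM with DMSO (0.27, SE 0.02, adjusted p = 3.1e-07, edgeR). OPTN and TAX1BP1 stayed called higher with library totals, and CALCOCO2 was not called there (0.02). NBR1, the receptor that resembles SQSTM1, had 70.7, 64.5 and 69.3 CPM with mebendazole, against 90.2, 88.2 and 92.2 CPM with DMSO (-0.40, SE 0.03, adjusted p = 5.5e-12, edgeR), lower in every pair.

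Per length of transcript, the 5 highest levels were those of lysosomal genes, though not all genes of that class were high. With mebendazole, CD63 stood at 831 CPM per kb, GRN at 633, PSAP at 486, CD68 at 243 and LAMP2 at 232 CPM per kb. The same 5 genes led with DMSO, where CD63 stood at 658, GRN at 635, PSAP at 282, CD68 at 226 and LAMP2 at 207 CPM per kb. WIPI1 was at 11.7 CPM per kb with mebendazole and at 0.952 CPM per kb with DMSO, where it was the lowest of the 46. With mebendazole the lowest was the lysosomal gene NAGLU, at 6.20 CPM per kb. Among ATG8 genes the order with mebendazole was GABARAPL2 (111 CPM per kb), GABARAP (101), MAP1LC3B (90.8) and GABARAPL1 (34.8). With DMSO it was GABARAP (107 CPM per kb), GABARAPL2 (74.9), MAP1LC3B (26.5) and GABARAPL1 (5.89). GABARAP thus led the family with DMSO, and the SDs of GABARAPL2 and GABARAP with mebendazole were 6.69 and 0.457 CPM per kb. Each length is the median over the gene's annotated protein-coding transcripts. Which of them was expressed was not measured, so the order of close levels is uncertain.

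Other genes of the pathways, taken from lists that exclude the members, did not all share the members' direction. Of 65 other lysosomal genes tested, 26 were higher and 32 lower, with a median log2 fold change of -0.09, against -0.03 over all genes tested. With library totals these were 14 higher and 37 lower with a median of -0.33, against -0.27 over all genes tested. Among 34 hydrolases and cofactors, 13 were higher and 18 lower (6 and 21 with library totals). IFI30, a thiol reductase that acts on antigens, had the highest change (484 ± 15.1 CPM with mebendazole and 64.4 ± 2.97 CPM with DMSO, log2 fold change 2.91), ahead of HGSNAT, an acetyltransferase of heparan sulfate breakdown, at 1.74 and the beta-mannosidase MANBA at 1.40. Among those that fell was the nuclease DNASE2, at -1.55. Among 31 membrane and sorting genes, 13 were higher and 14 lower (8 and 16 with library totals), from LAMP3 at 5.80 (38.5 ± 2.27 CPM with mebendazole and 0.683 ± 0.0544 CPM with DMSO), LAPTM4A at 2.30 and GGA1 at 0.99 to SORT1 at -1.15 and TMEM192 at -1.39. The 23 lysosomal members thus had a median of 0.27, against -0.09 for these 65 genes, a difference that was not tested.

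Of 53 other autophagy genes tested, 31 were higher and 16 lower, with a median of 0.40 (27 and 20 with library totals, median 0.16). Of 18 initiation and phagophore genes, 14 were higher and 2 lower, with a median of 0.65 (12 and 4 with library totals, median 0.40). They were led by WDR45 (39.4 ± 1.28 CPM with mebendazole and 13.9 ± 0.731 CPM with DMSO), ATG2A at 1.38 and KIAA0226 at 1.36, the last encoding Rubicon, an inhibitor of autophagy, and ended with PIK3R4 at -0.19 and ULK3 at -0.93. Conjugation and ATG8 genes split 4 higher and 4 lower under either scaling, from MAP1LC3A at 2.10, ATG4D at 0.85 and ATG4B at 0.74 to ATG16L2 at -0.82 and ATG4C at -0.94. MAP1LC3C, and FUNDC1 of the cargo list, were not tested.

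Cargo receptors outside the members counted 7 higher and 4 lower of 13 (6 and 4 with library totals). SQSTM1, the receptor p62, was at 2011 ± 5.62 CPM with mebendazole and 320.3 ± 10.6 CPM with DMSO (log2 fold change 2.65, SE 0.03, adjusted p = 8.6e-64, edgeR). BNIP3L followed at 1.03 and TBK1 at 0.76, while PHB2 at -0.35 and TEX264 at -1.55 were the lowest. Genes of fusion with lysosomes split 6 higher and 6 lower of 14 (5 and 8 with library totals), from PLEKHM1 at 1.79, YKT6 at 0.65 and VPS39 at 0.43 to VPS41 at -0.84 and VAMP8 at -1.61. Genes of nutrient sensing by mTORC1 counted 12 higher and 9 lower of 24 with a median of 0.12, but 8 higher and 13 lower with a median of -0.13 with library totals. SESN2 at 1.56, FNIP1 at 1.19 and RPTOR at 0.89 were highest, and LAMTOR2 at -0.68 and LAMTOR4 at -0.76, subunits of the lysosomal Ragulator, were lowest.

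**Figure D4:**
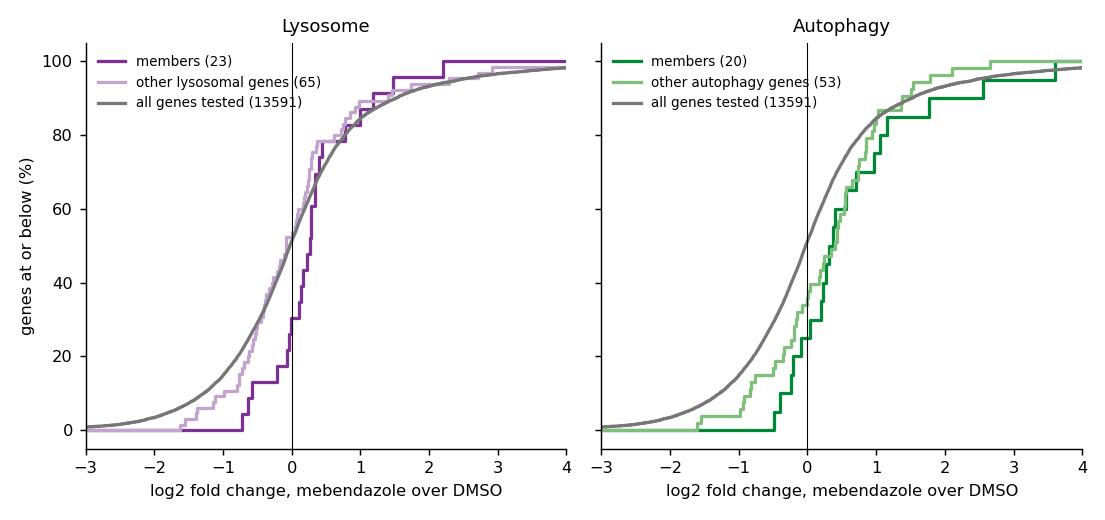
Cumulative share of genes (y axis, percent) at or below each log2 fold change of mebendazole over DMSO (x axis), for members, other genes of the same pathway and all 13591 genes tested. Medians are 0.27 for lysosomal members, -0.09 for the 65 other lysosomal genes, 0.35 for autophagy members, 0.40 for other autophagy genes and -0.03 for all genes tested.

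**Figure D5:**
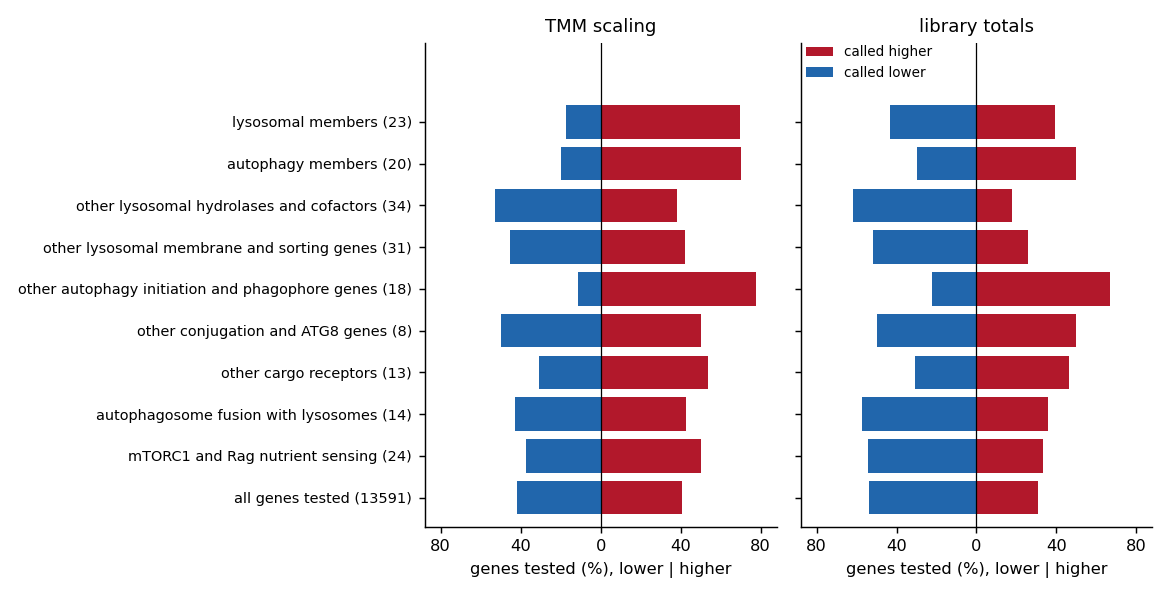
Percent of each list called higher (right) or lower (left) with mebendazole, under TMM scaling and under library totals, with the number of genes tested in parentheses. Initiation and phagophore genes outside the members were called higher in 77.8% with TMM and in 66.7% with library totals, whereas lysosomal members dropped to 39.1% with library totals.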

How the data were processed

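Per the labels, the 6 THP-1 libraries came from total RNA and a TruSeq RNA v2 kit. The authors deposited a table of raw read counts by gene symbol for the 6 samples, and 0 of its columns belonged to no sample. STAR, bedtools, HTSeq and DESeq2 and build hg19 are named without versions, per the submitters' processing notes. No source used here gives their annotation, strand setting or filters.

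Counts were fitted with edgeR 4.0.16 (R 4.3.3) over the whole table. Genes passed filterByExpr, which left 13591 with 99.9% of the reads, libraries were scaled by TMM, and the two-sided quasi-likelihood F test had the sample pair as a term. Calls were made at a Benjamini-Hochberg adjusted p under 0.05. With 2 residual degrees of freedom per gene and a prior of 61.0, small p-values rest mostly on spread pooled over genes. CPM use TMM-scaled totals, and pair ratios add 0.05 CPM. A level is a share of its library, so total RNA per cell is not measured.

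The pairing comes from the labels. Deviations of same-pair libraries from their group means correlated at 0.002, 0.093 and 0.030.

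Transcript lengths came from GENCODE by symbol, each the median over a gene's protein-coding transcripts, and promoters from RefSeq by symbol. These are GRCh38, so no coordinates are given for counts. The planned comparison of ATG8 protein sequences was not run, since no protein table was used here. Members and lists were chosen with earlier results of these data known. Values in every library were to be given for the extremes of each role, all ATG8 genes, the 3 factors and every member that changed in an alternative, and here they are given for all 46. Of each other list, up to 3 of the highest and 2 of the lowest called genes with a mean of 10 CPM or more are named. A gene that this rule takes is not reported here. The alternatives were library totals, RLE factors, DESeq2 1.42.0, no pair term, other filters on low counts, a test against 1.5-fold and each pair left out.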

Additional observations from a re-analysis of the deposited data

How the results depend on the processing

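Of the 46 genes, 15 kept their sign and their call in all 10 alternatives. Testing against 1.5-fold with edgeR's glmTreat took the call from 25 members and left 14 of the 46 higher and 1 lower. These were 5 and 1 of the 23 lysosomal genes and 7 and 0 of the 20 autophagy genes (0 lower also at an unadjusted p under 0.05). Over all genes tested that setting called 42.5%, 21.3% higher and 21.2% lower, so the lysosomal genes called higher were near the background. Library totals gave 21 higher and 17 lower, 9 and 10 of the lysosomal genes, and medians of 0.023 for lysosomal and 0.104 for autophagy genes. The sign turned there for LAMP2 (-0.083), CD68 (-0.142), ASAH1 (-0.023), NPC2 (-0.113), ATG13 (-0.014), BECN1 (-0.043) and ATG5 (-0.209). The construction of that alternative, which moves all genes by -0.24, accounts for these. With RLE factors and with DESeq2 the sign turned for GRN (0.0177 and 0.0178) and TFEB (0.0097 and 0.00997), without replicate 1 for GRN (0.0519) and TFEB (0.0154), and without replicate 3 for ATG5 (-0.00050), all near 0. Without each replicate in turn, GRN ran from -0.0262 to 0.0519, TFEB from -0.0271 to 0.0154 and ATG5 from -0.00050 to 0.117.

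Leaving out 1 pair at a time, called members ranged from 30 to 33 higher and stayed at 8 lower, and the bottom 25% of all genes held 1 to 2 members. That share, an alternative count added after seeing the data, held 1 member with no filter on low counts. It held 4 when only genes with a mean of 10 CPM or more were kept. Scaling was redone on the kept genes there, which moved their fold changes by a median of -0.034, and the autophagy median was 0.314. The cause of the changed counts was not tested. The fit with no replicate block called the same 32 members higher and 8 lower, so the pair term changed no call among the members. The shallowest member, WIPI1, had 1.36 CPM in its lowest library. It had 792 reads over the 3 mebendazole libraries and 77 over the 3 DMSO libraries, so the size of its fold rests on few DMSO reads.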
